A study of Mus musculus with 4 samples.

Results

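Keratins were followed as a gene family through 4 tissues of the developing mouse lower jaw and tongue. The members were all genes whose name in the array files is Krt followed by a number and at most 1 letter, which leaves out the keratin-associated proteins of hair. This gave 52 genes with 68 probes, among 26346 genes named on the arrays, and each gene was read from its brightest probe. RNA came from ICR embryos, an outbred mouse stock with no mutation or treatment named in the labels. The medial mandibular arch at E9.5 (MMA) was a pool of 12 embryos. The lateral lingual swellings (LLS) and the lateral mandibular arch (LMA), both at E11.5, were pools of 4 embryos, as was the tongue at E14.5 (T), which the design text calls the median tongue. Each pool was labelled with Cy3 and read on 1 array, all on 1 slide, so no difference has a replicate check and no test between tissues was possible. Because tissue was pooled, variation between embryos was not measured.

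Keratins are the intermediate filament proteins of epithelia. A filament is built from obligate pairs of a type I (acidic) and a type II (basic) keratin, and type I and type II genes lie in separate clusters. Simple, single-layered epithelia use Krt8 and Krt18, the basal layer of stratified epithelia uses Krt5 and Krt14, and layers above it switch to other pairs, such as Krt4 and Krt13 in the mouth. The filaments are anchored at desmosomes and hemidesmosomes, and the tongue surface is known for adding hair-type keratins in its filiform papillae.

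On these arrays the 27 type I members lay on chromosome 11, apart from Krt18, and 23 of the 24 type II members lay on chromosome 15, while the probe of Krt85 had no position. Krt222, which belongs to neither class here, lay on chromosome 11. A member counted as detected where its probe was well above background, the scanner software's own call. By that call 34 members were detected in at least 1 tissue and 19 in all 4. The number detected was 22 (MMA), 25 (LLS), 29 (LMA) and 29 (T) of 52. Of all 26346 genes, 15545 (MMA), 16200 (LLS), 16927 (LMA) and 16438 (T) were detected. Of the 34 keratins, 21 gave their highest signal in T, 8 in LMA, 4 in MMA and 1 in LLS. Tallies across tissues, such as this, were not made for all genes. The other 18 members were not well above background in any tissue: Krt6b, Krt12, Krt23, Krt25, Krt26, Krt27, Krt32, Krt34, Krt39, Krt40, Krt71, Krt72, Krt73, Krt76, Krt77, Krt82, Krt83 and Krt84.

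Levels below are processed signals scaled to a common 75th percentile, in arbitrary units. They are compared between tissues for the same probe and not between genes. Differences are log2 differences of these signals, the first tissue minus the second, and at least 2-fold (1 on the log2 scale) is the size used for counting. Where either tissue of a comparison had a dim probe, meaning not well above background, the size is a bound and is written as "at least". The exception is a dim value that already lay above its array's floor, the lowest well-above-background signal there. It was kept as it was, so that size is a plain difference, though still drawn and counted as a bound. The SD of a difference between single spots was 0.051 to 0.066, from probes printed 10 times on each array. The scanner software's own error for a difference was 0.20 for bright keratins such as Krt8 and Krt18. These errors cover the spots and not the pools.

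Marker genes were read beside the tissue labels. All 8 arch and tongue transcription factor markers were well above background in every tissue, which cannot tell the arrays apart. In T, 6 of these 8 were at least 2-fold lower than in LLS, beside 6.01% of all genes. The summed level of 17 epithelium markers, none of them a keratin, was 19600 (MMA), 16746 (LLS), 4021 (LMA) and 22213 (T), and Rab25 in LMA was the 1 marker value not well above background. Skeletal muscle markers summed to 819 (MMA), 18661 (LLS), 32977 (LMA) and 172725 (T). Such sums weigh the brightest probes most: Lsr gave 8232 of the epithelium sum in MMA, and Tnnt1 gave 15622 of the muscle sum in LLS. In these bulk samples, fewer epithelial cells and less RNA per cell cannot be told apart.

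**Figure D1:**
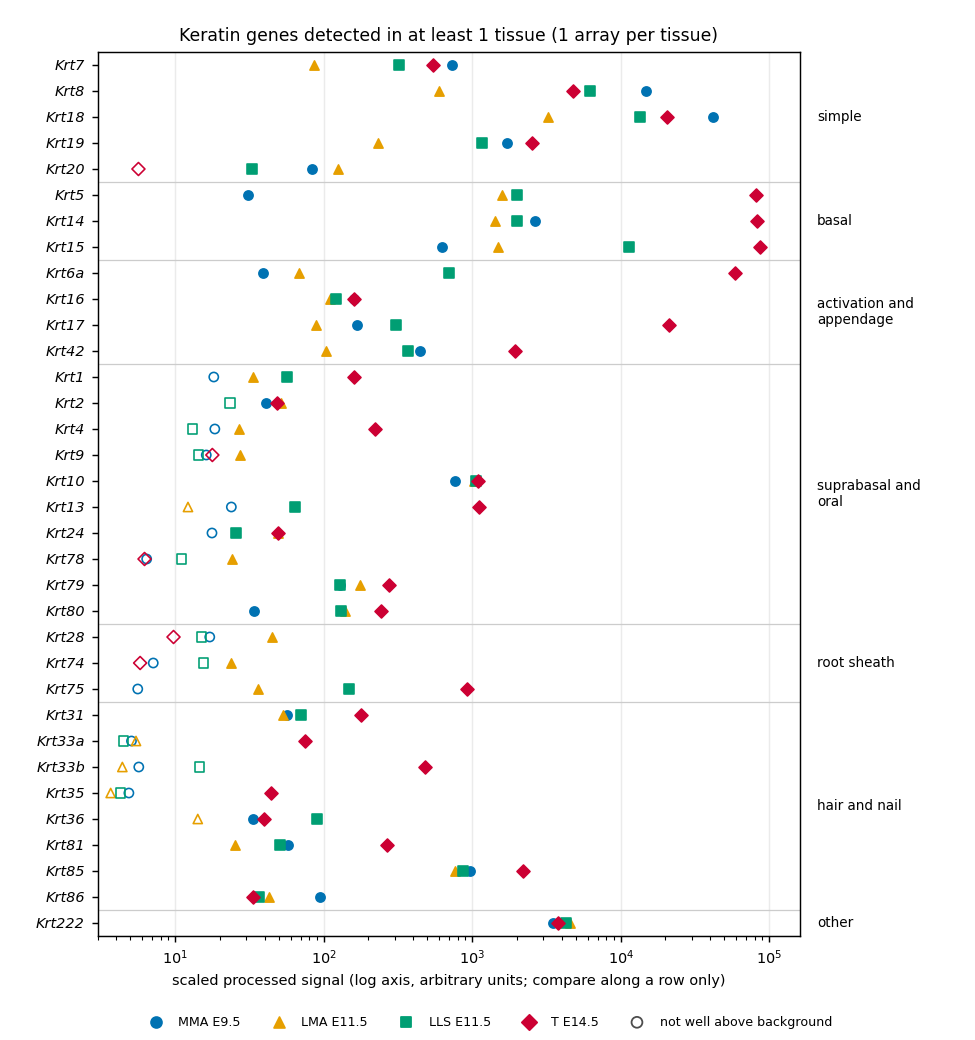
Scaled processed signal (arbitrary units, log axis) of the 34 detected keratins in MMA, LMA, LLS and T, 1 array each, grouped by the setting in which each is best known. Open symbols are values not well above background. The T symbols of Krt5, Krt14, Krt15, Krt6a and Krt17 lie well to the right of the other tissues in their rows, while Krt8 and Krt18 are highest in MMA and lowest in LMA. Each row is read along its own probe only.

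Of the 5 detected simple-epithelium keratins, Krt7, Krt8 and Krt18 were highest in MMA, Krt19 in T and Krt20 in LMA, and the first 4 of these were lowest in LMA. Krt8, the type II partner of Krt18, had a signal of 14856 (MMA), 6212 (LLS), 597 (LMA) and 4757 (T) (probe at chr15:101827214-101827273, build mm9). It was therefore 10.4-fold higher in LLS than in LMA (log2 difference 3.38) and 24.9-fold lower in LMA than in MMA (-4.64), and its other probe gave 3.33 and -4.64. LLS minus MMA was smaller, at -1.26, and T differed from LLS by -0.39. Quantile normalization and the deposited value table put the LLS minus MMA difference at -0.99, just under 2-fold.

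Krt18, the type I partner (probe at chr15:101862341-101862400, mm9), had 41655 (MMA), 13510 (LLS), 3265 (LMA) and 20545 (T). It ran in the same order as Krt8 over the first 3 of these tissues, with 2.05 for LLS minus LMA, -1.62 for LLS minus MMA and -3.67 for LMA minus MMA, and was 0.60 higher in T than in LLS. Krt7, a keratin of ducts and other simple epithelia, had 733, 321, 86.7 and 542 in MMA, LLS, LMA and T. It was 3.71-fold higher in LLS than in LMA and 8.46-fold lower in LMA than in MMA (-3.08, or -2.43 with normexp). Krt19, the keratin without a tail domain, had 1704, 1160, 234 and 2529 in the same order. Its LLS minus LMA difference was 2.31, its LMA minus MMA difference -2.86, and it was the 1 simple keratin at least 2-fold higher in T than in LLS (1.12).

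Krt20, a keratin known from gut, urothelium and Merkel cells, ran the other way. Its signal was 84.0 in MMA, 33.1 in LLS and 124 in LMA, and it was not well above background in T. It was 1.91 lower in LLS than in LMA, against 4 higher members in the same group. With another background correction (normexp) that difference was -0.87, under 2-fold, and the LLS minus MMA difference went from -1.35 to -0.60.

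Krt8 and Krt18 are neighbours, with probes 35.1 kb apart, and are the last 2 members in order on chromosome 15. The 250 bases before the annotated start of each are shown because these neighbours differed in the same direction among the E9.5 and E11.5 tissues. They come from RefSeq, build GRCm38.p6, at chr15:102004343-102004592 on the minus strand for Krt8 and chr15:102027966-102028215 on the plus strand for Krt18. Neither holds TATAAA or ATAAAA before the start, so no letters are in capitals. In Krt8 a TATAAA begins 1 base before the annotated start and runs across it.
Krt8: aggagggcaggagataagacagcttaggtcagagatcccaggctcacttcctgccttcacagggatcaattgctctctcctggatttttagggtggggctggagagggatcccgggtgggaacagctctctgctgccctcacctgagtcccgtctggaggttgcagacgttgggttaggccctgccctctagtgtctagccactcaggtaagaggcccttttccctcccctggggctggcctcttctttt
Krt18: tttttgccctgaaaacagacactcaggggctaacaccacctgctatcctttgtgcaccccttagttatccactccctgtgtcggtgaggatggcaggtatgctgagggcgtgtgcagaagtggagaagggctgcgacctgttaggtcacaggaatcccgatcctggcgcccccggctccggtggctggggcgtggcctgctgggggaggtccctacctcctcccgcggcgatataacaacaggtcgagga

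The 3 keratins of the basal layer shared high levels in T and differed at the earlier stages. Krt5 (probe at chr15:101537514-101537573, mm9) had a signal of 31.0 (MMA), 2015 (LLS), 1599 (LMA) and 81614 (T). It was 65.1-fold higher in LLS than in MMA (6.02, software error 0.33), 51.7-fold higher in LMA than in MMA (5.69), within 2-fold between LLS and LMA (0.33), and 40.5-fold higher in T than in LLS (5.34). The MMA signal was low but well above background, and normexp put the differences from MMA at 4.32 for LLS and 4.03 for LMA.

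Krt14, the type I partner of Krt5 (probe at chr11:100064495-100064554, mm9), had 2634 (MMA), 2018 (LLS), 1430 (LMA) and 82735 (T). It was thus measured in MMA at about the level of the E11.5 tissues, with differences of -0.38 for LLS and -0.88 for LMA. From LLS to T it was 5.36 higher, next to 5.34 for Krt5. Krt15, a basal type I keratin without a fixed type II partner (probe at chr11:99993331-99993390, mm9), had 625, 11350, 1500 and 87051 in MMA, LLS, LMA and T. Unlike Krt5 and Krt14, it separated the E11.5 tissues, at 7.57-fold higher in LLS than in LMA (2.92), and it was 18.2-fold higher in LLS than in MMA (4.18) and 7.67-fold higher in T than in LLS (2.94).

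The activation and appendage keratins are best known from wound edges, hair follicles, nails and tongue papillae. Krt6a, a type II keratin (probe at chr15:101520361-101520420, mm9), had a signal of 39.3 (MMA), 700 (LLS), 68.3 (LMA) and 58730 (T). It had the largest T minus LLS difference among the keratins, 83.9-fold (6.39), and was also 10.3-fold higher in LLS than in LMA (3.36) and 17.8-fold higher in LLS than in MMA (4.15). Normexp put the last of these at 2.74 and the LLS minus LMA difference at 2.52.

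Krt17, a type I keratin of appendage buds and embryonic ectoderm (probe at chr11:100117584-100117643, mm9), had 168, 306, 88.4 and 21044 in MMA, LLS, LMA and T. It was 68.7-fold higher in T than in LLS (6.10) and 1.79 higher in LLS than in LMA, while the differences from MMA were within 2-fold. Krt16, the usual type I partner of Krt6a, had 160, 122, 111 and 160 and stayed within 2-fold in all 4 comparisons. Krt42, which lies beside Krt17 on chromosome 11, had 447, 370, 103 and 1952. It was 1.84 higher in LLS than in LMA, 2.11 lower in LMA than in MMA and 2.40 higher in T than in LLS. Krt6b, close in name and sequence to Krt6a, was not well above background in any tissue.

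Among the keratins of differentiating layers, those of the oral lining had the largest differences, all toward T. Krt13 (probe at chr11:99980412-99980471, mm9), which pairs with Krt4 above the basal layer of the mouth, had 64.6 in LLS and 1111 in T and was not well above background in MMA or LMA. It was 17.2-fold higher in T than in LLS (4.10, and 3.28 by its other probe), and normexp put this at 3.20. Against the dim tissues Krt13 in LLS was at least 1.80 higher than in LMA and at least 1.39 higher than in MMA, but 0.83 and 0.50 with normexp. Krt4 had 222 in T and 27.0 in LMA and was not well above background in MMA or LLS. It was at least 10.1-fold higher in T than in LLS (3.34), and normexp put the difference at 1.61.

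The epidermal keratins of the same group moved less. Krt10, the type I keratin of differentiating epidermis, had 761, 1066, 1029 and 1094 in MMA, LLS, LMA and T and stayed within 2-fold in all 4 comparisons. Its partner Krt1 had 56.8 in LLS, 33.2 in LMA and 161 in T, with a T minus LLS difference of 1.51 that normexp put at 0.81. Krt80, linked with desmosomes and early differentiation, had 34.0, 130, 140 and 244 in the same tissue order. Both E11.5 tissues were higher than MMA, by 1.94 in LLS and 2.04 in LMA, and normexp put these at 0.84 and 0.89. Krt79, a keratin of hair canal and gland openings, had 129, 128, 175 and 275 and was 2.14-fold higher in T than in LLS, where normexp gave a log2 difference of 0.81.

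Krt2 and Krt24, of the same group, had no value over 51.5. Krt2 differed by -1.14 in LLS minus LMA and 1.05 in T minus LLS, and Krt24 by at least 1.01 in LMA minus MMA. Normexp put these at -0.27, 0.28 and 0.30. The dim LLS value of Krt2 was not raised, and LLS minus LMA was -1.14 without filter and floor as well. Krt9, the keratin of palm and sole skin, and Krt78 were well above background in LMA alone, at 27.3 and 24.1. The same was true of the root sheath keratins Krt28 (45.0) and Krt74 (23.9). LMA was also the array with the most detected genes of any kind, 16927 against 15545 in MMA, 16200 in LLS and 16438 in T, and whether this bears on those 4 keratins was not tested.

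Krt75, the companion-layer keratin of hair that is also found in filiform papillae, had 930 in T, 148 in LLS and 36.3 in LMA and was not well above background in MMA. It was 6.27-fold higher in T than in LLS (2.65), 2.03 higher in LLS than in LMA and at least 2.59 higher in LLS than in MMA, the last 2 of which normexp put at 1.09 and 1.18. Its other probe gave 0.62, at least 0.57 and at least 0.10 for these comparisons, so each call rests on the brighter probe.

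Of the 15 hair and nail keratins, 8 were well above background in T, 3 of them in T alone. Of all 26346 genes, 16438 were well above background in T. Krt33b, a hair cortex keratin (probe at chr11:99885054-99885113, mm9), had 484 in T and was not well above background elsewhere, which put it at least 22.1-fold higher in T than in LLS (4.47, or 2.58 with normexp). Krt33a and Krt35 were likewise detected in T alone, at 74.9 and 44.0, and at least 1.78 and 1.01 higher than in LLS. Normexp put those at 0.77 and 0.38, under 2-fold. Krt31 had 56.6, 70.3, 53.2 and 178 in MMA, LLS, LMA and T, and was 1.34 higher in T than in LLS, or 0.80 with normexp.

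Krt85, a type II hair keratin, had 961, 869, 763 and 2201 and was also 1.34 higher in T than in LLS. The probe named Krt81 had 57.9, 51.2, 25.3 and 265, 5.16-fold higher in T than in LLS (2.37, or 1.38 with normexp). Its listed transcripts also include Krt83 and Krt86, so these type II hair keratins cannot be told apart by it. Krt36, a keratin of nail and tongue papillae, was the 1 member at least 2-fold lower in T than in LLS. Its signals were 33.3 in MMA, 89.7 in LLS and 39.5 in T, and it was not well above background in LMA. It was at least 2.27 higher in LLS than in LMA, or 1.04 with normexp. Its T minus LLS difference of -1.18 became -0.62 with normexp. Krt86 had 94.8, 36.9, 42.9 and 33.3 and was lower than in MMA by -1.36 in LLS and -1.14 in LMA, or -0.66 and -0.67 with normexp. Krt222, a keratin-like gene, was level throughout, at 3492, 4267, 4591 and 3771.

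Keratin genes often shared a sequence feature close to their start. RefSeq gave a window for 35 of the 52 members, 19 of them detected. For a keratin only the window farthest upstream was used, and the windows of all genes were not reduced in this way. In the 250 bases before the start, TATAAA or ATAAAA on the strand of the gene was found in 24 of the 35 (68.6%), against 14.2% of 32851 windows of all genes. The letters of these motifs overlap in TATAAAA, which counts once here. Between 40 and 20 bases before the start, 20 keratin windows (57.1%) held a match, against 942 of all windows (2.87%). The GC box GGGCGG, on either strand, was in 5.71% of the keratin windows and 32.7% of all. CACCC, the letters that Klf factors are known to bind, was in 77.1% and 52.0%. Searched in the same way, GCCNNNGGC was in 11.4% and 13.7%, and TGANTCA in 2.86% and 6.75%. A match is a description of the letters and not a bound site.

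The windows of Krt5, Krt13 and Krt75 are shown because these genes were among the most different in T and hold the match at a like distance, beginning 29, 29 and 32 bases before the start. Not all genes higher in T did so: the windows of Krt14 and Krt42 held no match, and that of Krt33b held it 47 bases before the start. Krt6a, Krt15, Krt17 and Krt4, also higher in T, had no window. Nor was the match limited to such genes. Krt10, within 2-fold in T minus LLS, held it 26 bases before the start, and Krt25 and Krt76, detected in no tissue, at 29. A link between the match and the level in T was not tested. ATAAAA is in capitals. The build is GRCm38.p6, all 3 are on the minus strand, and they lie at chr15:101712906-101713155, chr11:100121567-100121816 and chr15:101573905-101574154.
Krt5: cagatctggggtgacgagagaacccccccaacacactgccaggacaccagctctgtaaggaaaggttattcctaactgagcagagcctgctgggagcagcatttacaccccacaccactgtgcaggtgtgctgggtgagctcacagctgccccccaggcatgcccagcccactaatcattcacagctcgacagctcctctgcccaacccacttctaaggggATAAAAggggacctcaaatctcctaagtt
Krt13: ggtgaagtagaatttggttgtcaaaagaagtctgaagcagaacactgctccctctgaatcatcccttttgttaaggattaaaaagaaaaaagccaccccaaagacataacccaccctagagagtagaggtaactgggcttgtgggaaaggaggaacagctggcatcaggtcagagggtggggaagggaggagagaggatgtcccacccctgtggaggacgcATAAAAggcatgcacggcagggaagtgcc
Krt75: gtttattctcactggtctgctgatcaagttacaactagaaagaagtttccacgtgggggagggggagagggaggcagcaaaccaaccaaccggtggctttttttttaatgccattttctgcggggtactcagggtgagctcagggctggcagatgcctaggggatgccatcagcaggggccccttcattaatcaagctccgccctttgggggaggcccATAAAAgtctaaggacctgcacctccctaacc

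Partners in a filament were set beside each other as the type II difference minus the type I difference. Krt5 and Krt14 differed by -0.16 in LLS minus LMA and by -0.02 in T minus LLS. Against MMA they parted, by 6.41 for LLS and 6.57 for LMA, where the Krt5 differences rest on its low MMA signal. Krt8 and Krt18 went the same way in the 3 comparisons without T, with Krt8 differing more in LLS minus LMA (by 1.33) and in LMA minus MMA (by -0.96). Krt6a exceeded Krt16 by 3.22 in LLS minus LMA, 4.54 in LLS minus MMA and 6.01 in T minus LLS. Krt1 exceeded Krt10 by 1.47 in T minus LLS.

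LLS and LMA, taken at 1 stage, address how the tongue-forming swellings differ from the neighbouring arch. LLS exceeded LMA at least 2-fold for 12 of 31 keratins and was at least 2-fold below it for 3, where 3.67% and 2.88% of all 17315 genes did. Among the 23 measured in both tissues, 10 were higher and 1 lower, against 3.14% and 2.43% of all genes. Krt8, Krt6a and Krt15 led, and the lower members were Krt20, Krt2 and Krt28, of which Krt28 is a bound of -1.04 that was -0.48 by its other probe. With normexp 0 of these lower calls remained. Of the higher, Krt81 (0.51 in place of 1.02) and Krt13 (0.83 in place of at least 1.80) were no longer at least 2-fold. The median was 0.33, against 0.01 for all genes. All 17 epithelium markers were higher in LLS as well, from 1.07 to 3.24 with a median of 2.28, and their part in the keratin differences was not tested. Krt6a and Krt8 lay above that range and 20 keratins below it, Krt5, Krt14 and Krt10 among them. These 20 also include members detected in LMA but dim in LLS, such as Krt4, Krt9, Krt74 and Krt78. With LMA alone above background, such members could hardly have reached the range.

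LLS and LMA were each compared with MMA, which they share as the earlier tissue. In LLS, 8 of 26 keratins were at least 2-fold higher and 5 lower, where 9.76% and 5.65% of all genes were, and the median was 0.03 against -0.06. Among the 21 measured in both tissues 5 were higher and 5 lower, beside 8.35% and 5.24% of all genes. The higher ones were Krt5, Krt15, Krt6a, Krt75, Krt80, Krt36, Krt13 and Krt1, and the lower ones Krt18, Krt86, Krt20, Krt8 and Krt7. Krt36 (1.43) and Krt1 (at least 1.21) were 0.56 and 0.39 with normexp. Epithelium markers ran from -1.21 to 1.17 with a median of -0.23, and all 8 higher keratins lay above that range. In LMA, 4 of 30 keratins were higher and 7 lower, where 10.6% and 7.25% of all genes were. Among the 21 measured in both tissues 3 were higher and 7 lower, beside 9.02% and 7.07%. The median over all 30 was 0.05, but -0.33 over those 21 and -0.18 after quantile normalization, while that of all genes was -0.09. The higher ones were Krt5, Krt80, Krt15 and Krt24, and the lower ones Krt8, Krt18, Krt7, Krt19, Krt42, Krt81 and Krt86, where Krt81 (-1.19) was -0.61 with normexp. In this comparison 15 of the 17 epithelium markers were lower, with a median of -2.52, and the highest stood at -0.34, so that 19 keratins lay above all of them. These 19 include members detected in LMA but dim in MMA, such as Krt9 (0.15), Krt74 (-0.04) and Krt78 (-0.03). With MMA raised to its floor, such members could hardly have fallen below the markers.

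The comparison of T with LLS follows the tongue from its first swellings. T exceeded LLS at least 2-fold for 19 of 30 keratins and was at least 2-fold below it for 1, where 12.9% and 6.01% of all 17324 genes did. Among the 24 measured in both tissues, 14 were higher and 1 lower, against 10.0% and 5.59% of all genes. The keratin median was 1.23, or 0.80 with normexp, and that of all genes -0.08. By group, all 3 basal members, 3 of 4 activation members, 5 of 8 suprabasal members and 6 of 8 hair and nail members were higher, against 1 of 5 simple keratins. Of those measured in both tissues, 3 of 6 suprabasal, 3 of 5 hair and nail and 1 of 4 simple keratins were higher. The other higher members of these groups were dim in LLS and were compared only through T. With normexp, the suprabasal Krt1, Krt2 and Krt79 and the hair and nail Krt31, Krt33a and Krt35 fell under 2-fold. Epithelium markers differed much less, with 2 higher, 2 lower and a median of 0.51. Their highest value was 2.55, and Krt4, Krt5, Krt6a, Krt13, Krt14, Krt15, Krt17, Krt33b and Krt75 exceeded it. Their part in the keratin differences was not tested in these comparisons either.

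**Figure D2:**
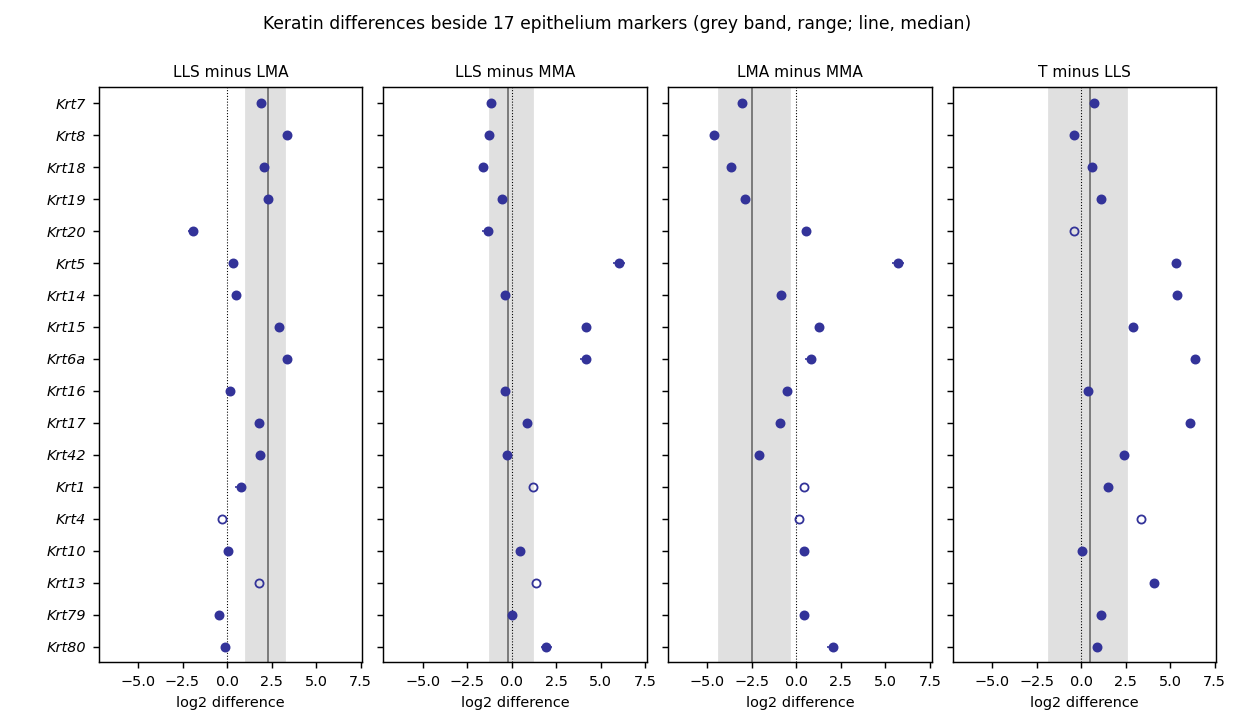
Log2 difference of keratins of the simple, basal, activation and suprabasal groups (circles, with open circles for bounds and lines for the software error of measured values) in the 4 comparisons, beside the range and median of 17 epithelium markers (grey band and line). Krt2, Krt9, Krt24, Krt78 and the hair and root sheath groups are not drawn. In LLS minus LMA the drawn keratins other than Krt6a and Krt8 lie inside or below the marker range, which runs from 1.07 to 3.24, while in T minus LLS Krt4, Krt5, Krt6a, Krt13, Krt14, Krt15 and Krt17 lie above its upper end of 2.55.

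Some of the genes higher in T lay next to each other. On chromosome 11, the 148 kb from the probe of Krt13 to that of Krt42 hold 8 members. Of the 7 compared, 6 were at least 2-fold higher in T than in LLS, beside 12.9% of all genes. Among them were Krt15, Krt19, Krt14 and Krt17. Of the other 19 members on that chromosome 9 were compared, and 4 of these were higher, Krt33b by the most. Krt33a, Krt33b and Krt35, among these 4, were dim in LLS and were compared only through T. The stretch was chosen after its values were seen. On chromosome 15, Krt6a and Krt5 are neighbours, with probes 17.1 kb apart, and were 6.39 and 5.34 higher. Krt16, inside the chromosome 11 stretch, stayed within 2-fold.

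**Figure D3:**
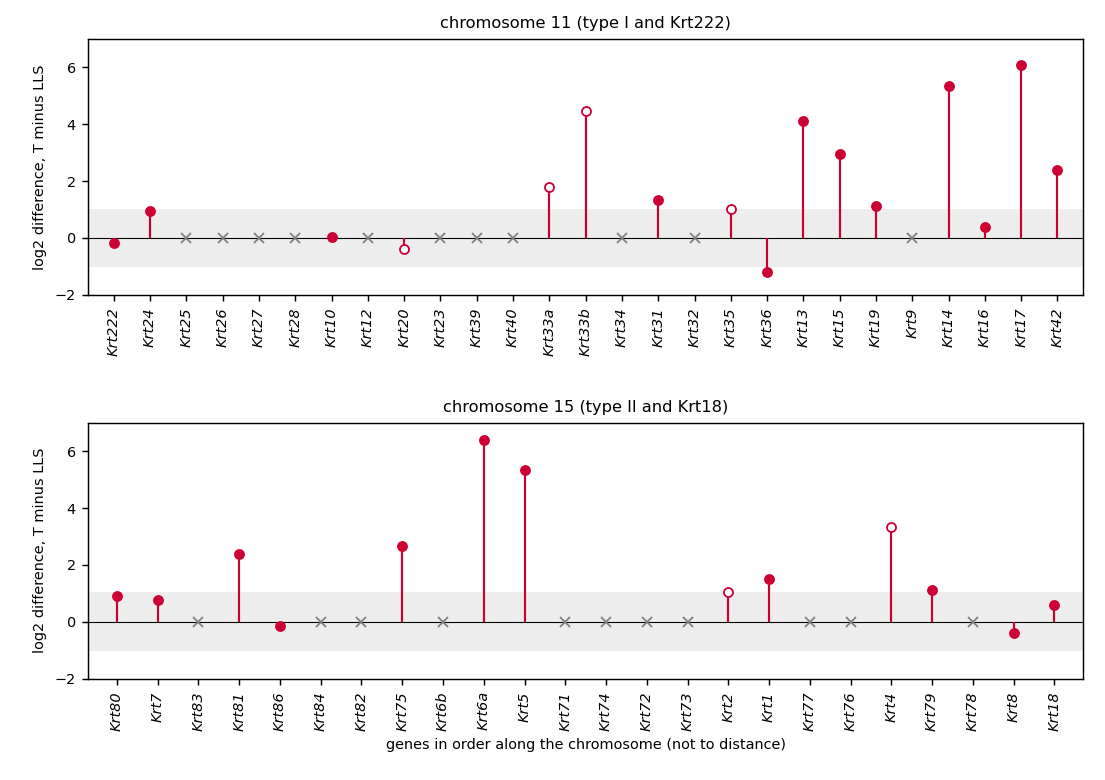
T minus LLS log2 difference of each keratin by its order along chromosome 11 and chromosome 15, from the mm9 positions of the probes, with open circles for bounds and members not compared marked by a cross at 0. The grey band is within 2-fold. Krt6a, Krt17, Krt14 and Krt5 stand highest, Krt33b follows as a bound of 4.47, and Krt8 and Krt18 at the end of chromosome 15 lie near 0.

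Genes that anchor keratin filaments differed in T and in LLS as well. Of 21 genes of desmosomes, hemidesmosomes and their linkers compared in T minus LLS, the median was 1.54, and 18 were at least 2-fold higher and 0 lower, beside 12.9% and 6.01% of all genes. The desmosomal plaque gene Pkp1 (5.31), the hemidesmosomal collagen gene Col17a1 (4.55) and the integrin gene Itgb4 (3.05) led among those measured in both tissues. In LLS minus LMA the median was 1.62, and 12 of 19 were higher and 0 lower, beside 3.67% and 2.88% of all genes, led by the linker genes Eppk1 (4.31) and Dsp (2.76) and the anchoring filament gene Lad1 (2.73). In LLS minus MMA 10 of 19 were higher and 1 lower, beside 9.76% and 5.65% of all genes. Of those measured in both tissues, the envoplakin gene Evpl (2.94), Itgb4 (2.59) and Eppk1 (2.06) were highest, while Pkp1 and Col17a1 were at least 3.23 and at least 2.90 higher. The lower gene was Pkp2 (-1.93). Pkp2 is the plakophilin of simple epithelia and heart, and another of its probes gave a bound of -0.79. In LMA minus MMA 2 of 19 were higher, about the 10.6% of all genes, and 6 lower, beside 7.25%, with Pkp2 (-3.26), Eppk1 (-2.25) and Lad1 (-2.25) lowest.

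Transcription factor genes known to control epithelial keratins are described against the same shares of all genes, and the named ones were measured in both tissues unless given as a bound. In LLS minus LMA the median was 1.84, and 12 of 15 were at least 2-fold higher and 0 lower, beside 3.67% and 2.88%. Sox2 (4.18), Zfp750 (2.71) and Grhl3 (2.69) were the highest measured, and Elf5 was at least 4.12 higher. In LLS minus MMA 7 of 15 were higher and 0 lower, beside 9.76% and 5.65%, with Grhl3 (3.64), Elf5 (3.52) and Tfap2c (2.57) the highest measured. In LMA minus MMA, Klf4 (1.32) was the 1 higher of 15, a share below the 10.6% of all genes, and 5 were lower, beside 7.25%, with Sox2 (-3.55), Grhl2 (-2.49) and Tfap2a (-1.45) lowest. In T minus LLS 6 of 16 were higher and 1 lower, beside 12.9% and 6.01%. Klf4 (3.11) and Klf5 (1.89) were among the higher, and Grhl3 was lower (-1.26). Trp63, which specifies stratified epithelium, depended on the probe. Its brightest probe stayed within 2-fold throughout, with signals of 2691, 3757, 3203 and 3160 in MMA, LLS, LMA and T, and its other 3 probes gave 2.30 to 2.56 for LLS minus LMA and 0.95 to 1.51 for T minus LLS. In LMA minus MMA they gave -2.78 to -2.19, where the brightest probe gave 0.25.

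Genes of the cornified envelope, the layer built last in skin, were detected most often in T. Of 12 on the array, 8 were detected in T, beside 6 in LMA and 5 each in LLS and MMA. Of all 26346 genes, 16438 were detected in T, 16927 in LMA, 16200 in LLS and 15545 in MMA. In T minus LLS 4 of 8 were at least 2-fold higher and 0 lower, beside 12.9% and 6.01% of all genes, among them the loricrin gene Lor (1.66) and Krtdap, a keratinocyte differentiation gene, at least 7.85 higher. Among the 5 measured in both tissues only 1 was higher, Lor, beside 10.0% of all genes, and their median was -0.04. Lor was itself low, at 30.9 in LLS, 62.4 in LMA and 97.9 in T. The other higher genes were dim in LLS and were compared only through T. Krtdap was chosen after its values were seen, and its other probes gave at least 6.63 and at least 6.40. The other intermediate filament genes, which belong to muscle, nerve, mesenchyme and the nuclear lamina, had a median of 0.91 in T minus LLS, with 7 of 16 higher and 1 lower, beside the same shares. Of those measured in both tissues, the muscle gene Des (3.18), the lamin gene Lmna (2.77) and the neuronal gene Ina (2.21) were highest, and the neurofilament gene Nefm (-1.12) was lower. Prph, a filament gene of peripheral neurons, and Sync were at least 4.85 and at least 3.97 higher. In LLS minus LMA 0 of 15 were higher and 1 was lower, near the 3.67% and 2.88% of all genes.

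**Figure D4:**
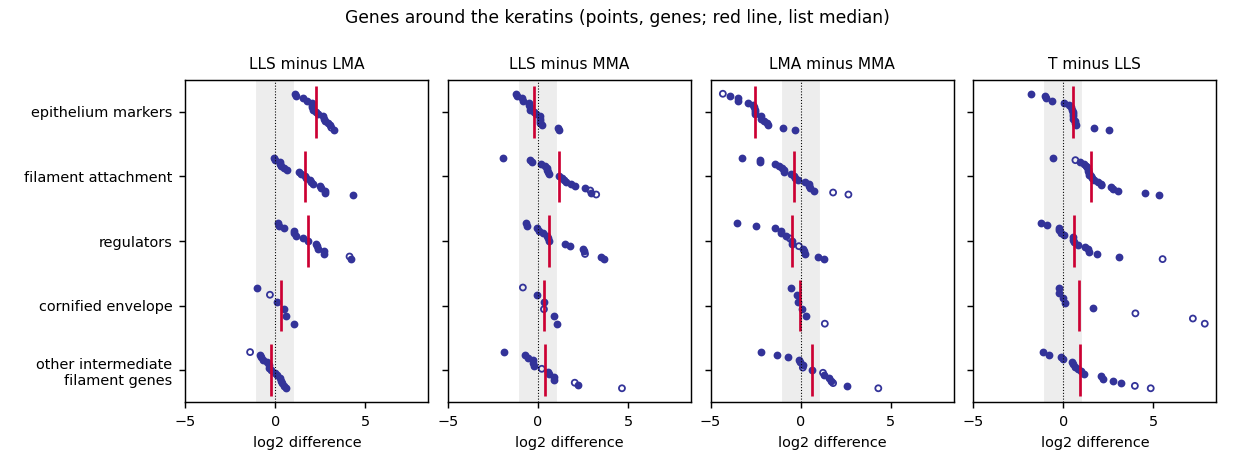
Log2 differences of the genes of the epithelium marker, attachment, regulator, cornified envelope and other intermediate filament lists in the 4 comparisons, with 1 point per gene (open for bounds), a red line at each median and a grey band within 2-fold. The attachment genes have medians of 1.62 in LLS minus LMA and 1.54 in T minus LLS, while the other intermediate filament genes stand at -0.23 and 0.91.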

How the data were processed

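Single-colour Agilent arrays measured 4 pooled mouse tissues, 1 array each. The authors obtained the deposited intensity values from scanner images with Agilent Feature Extraction, version 10.7.1.1 per the file headers and 9.5.1.1 per the submitters' processing notes. The extraction text of the labels names cerebellum, although the titles name jaw and tongue. The series' deposited table of intensity served as an alternative.

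Of 59305 spots that were not controls, between 57.0% and 62.9% per array were well above background and 0 were saturated. The number of arrays limits the precision. Flagged spots were left out and repeated spots averaged. Log2 values of the processed signals in the scanner software's output were used, and the 75th percentile of each array was subtracted. Dim values were raised to their array's floor, its lowest well-above-background signal, unless they already lay above that floor. Genes dim in both tissues of a comparison were not compared. Counting was checked on simulated data.

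The members and lists were chosen with earlier results of these data known. All detected keratins could be named, and those at least 2-fold different or in the simple, basal or activation lists with full values. In other lists the 3 highest and 3 lowest genes at least 2-fold different and measured in both tissues were named. The result for 1 list member is not reported here. The probe named Krt83 in the files belongs to Krt87 by its current accession, and 3 probes with clone names and current keratin symbols were not members. The software was Python 3.11.15, pandas 2.3.3, R 4.3.3 and limma 3.58.1 (normexp with offset 50, quantile, cyclic loess). The position of a probe within its transcript was not analysed here.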

Additional observations from a re-analysis of the deposited data

How the results depend on the processing

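Values with normexp background correction, without filter and floor on dim probes, with both tissues required above background, and with a 4-fold size were set beside the main counts. In LLS minus LMA, the 3 lower keratins became 0, 7, 1 and 0 in that order, and 1 after cyclic loess. The 12 higher became 10 with normexp and 7 at 4-fold. In LLS minus MMA, the 8 higher became 4 with normexp, 5 with both tissues required and 4 at 4-fold, and the 5 lower became 3 with normexp, 9 without filter and 0 at 4-fold. In LMA minus MMA, the 4 higher became 2 with normexp, 9 without filter and 2 at 4-fold. The 7 lower became 5 with normexp, 11 without filter and 5 at 4-fold. In T minus LLS, the 19 higher became 11 at 4-fold, and the 1 lower became 0 with normexp, 6 without filter and 0 at 4-fold. Of the 19 higher, Krt1, Krt2, Krt31, Krt33a, Krt35 and Krt79 fell under 2-fold with normexp. The keratin median of 0.03 in LLS minus MMA was -0.18 without filter. That of 0.05 in LMA minus MMA was -0.18 with quantile normalization and the deposited values, -0.31 without filter and -0.33 with both tissues required. That of 1.23 in T minus LLS was 0.80 with normexp and 0.81 without filter.

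Of 103 differences of named keratins, 59 were at least 2-fold. Normexp left 37 of these, quantile normalization 54, cyclic loess 56 and 54 stayed with the authors' deposited values, and 0 of these 59 changed sign under any of these settings. With cyclic loess the all-gene median shifted by 0.12 in LLS minus MMA, 0.12 in LMA minus MMA and 0.17 in T minus LLS. A 75th percentile over probes detected on all arrays shifted it by 0.13 in LMA minus MMA. Quantile normalization and the deposited values shifted it by the same amount in every comparison, so they are not separate checks. Signal over background limits the dim members, whose differences shrink with normexp. No paired analysis was possible because each tissue has 1 array.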

Other observations

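The keratin-associated proteins, the matrix partners of hair keratins, were kept out of the family by its naming rule. Of 55 such genes on the arrays, 24 were well above background in at least 1 tissue and 16 in all 4. In T minus LLS 2 of 21 were at least 2-fold higher and 0 lower, beside 12.9% and 6.01% of all genes. Krtap1-3 had a scaled signal of 154 in T and Krtap3-1 had 43.9, and neither was well above background in the other tissues, as was true of Krt33a, Krt33b and Krt35. In LLS minus LMA 1 of 21 was higher and 0 lower, near the 3.67% and 2.88% of all genes.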
